A study of Mus musculus with 9 samples.

Results

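Solute carriers are the membrane proteins that move sugars, amino acids, ions, vitamins and metabolites across cell and organelle membranes, and 235 of them were followed here over the urothelium, the detrusor and the stroma of the neonatal mouse bladder. The members were every gene whose symbol in the platform annotation reads Slc, a number, the letter a and a number, or Slco, a number, a letter and a number, with a probe set at or above the median intensity of its array on at least 3 of the 9 arrays. Of 324 carriers with a probe set, 235 met this rule and 89 did not. A gene with several passing probe sets was represented by the one with the highest mean. The 235 carriers fell into 49 families and were grouped by substrate into 13 classes. In all, 13064 genes passed the same filter and were tested.

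Each of the 3 layers was sampled on 3 arrays: urothelium, the epithelium that lines the lumen; detrusor, the smooth muscle wall; and stroma, the connective tissue between them. The layers were cut by laser capture from frozen sections of bladders of FVB/N mice, all carrying the SMGA/EGFP transgene (smooth muscle gamma actin, Actg2), at postnatal day 1 or 2. Urothelium and stroma each had 1 array of day 1 and 2 arrays of day 2, and detrusor had 2 of day 1 and 1 of day 2. The sex is labelled unknown, the captured RNA was amplified in 2 rounds before hybridisation to Affymetrix MOE430 arrays, and no array was pooled. The labels do not tie arrays to animals, so the p-values measure only the spread between these arrays, which may be technical. A level below is log2(intensity + 39.31), and a fold is on that scale, which understates the change of dim genes. "Called" means a Benjamini-Hochberg adjusted p under 0.05 in the limma fit over all 13064 genes. In captured tissue, fewer cells of a type and less RNA per cell cannot be told apart.

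Carriers act in several ways: exchangers and cotransporters use the sodium, proton or chloride gradients that ATP-driven pumps build, while uniporters let a solute run down its own gradient. Many families contain paralogs with the same substrate but different tissues, so that muscle and epithelium take up glucose or export lactate through different members. The urothelium is best known as a barrier to urea, protons and potassium in urine, and smooth muscle depends on carriers that remove calcium and supply fuel for contraction.

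The labelled layers were checked against marker transcripts. The 12 urothelial markers summed to 315114 to 427964 intensity units in urothelium, against 6174 to 10188 in detrusor and 24329 to 333929 in stroma, where stroma 3 was highest and stroma 1 reached 122546. The 10 smooth muscle markers summed to 38983 to 428675 in urothelium, against 418715 to 647880 in detrusor and 91986 to 231035 in stroma, and the highest urothelial value was that of urothelium 3. The 11 fibroblast and matrix markers were highest in stroma, with sums of 409766 to 613023, against 126856 to 260809 in urothelium and 290810 to 367282 in detrusor. Skeletal muscle markers (6 of 9 measured) summed to 121541 to 138146 in detrusor, against 230 to 32681 in urothelium and 1813 to 9720 in stroma. Transcripts of kidney tubule cells (12 of 12 measured) summed to 70055 in urothelium 1 and 80040 in stroma 3, against 2547 and 10842 in urothelium 2 and 3, 1825 to 2732 in detrusor, and 3802 and 11500 in stroma 1 and 2. Gonadal transcripts (8 of 10 measured) summed to 147206 in stroma 2, against 1643 to 4084 on the other arrays. All detrusor arrays were below all other arrays in urothelial marker sum. The calls lost without these arrays are named below.

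Of the 235 carriers, 139 were at or above the array median on all 9 arrays and 16 on exactly 3. Among those just inside the rule, Slc2a6 and Slc8a2 entered through their 3 detrusor arrays alone, so their differences from the other layers followed partly from the rule. Just outside it, 21 carriers reached the median on 2 arrays, 31 on 1 array and 37 on none. Slc8a3, a sodium-calcium exchanger, was just outside, with log2 levels of 5.67, 6.12 and 6.23 in urothelium, 7.15, 7.29 and 7.51 in detrusor and 8.96, 8.92 and 6.10 in stroma. Slc13a1, a sulfate carrier of the kidney, was also outside, with 11.44, 6.03 and 6.87 in urothelium, 6.16, 5.47 and 5.51 in detrusor and 7.61, 5.37 and 8.79 in stroma. A low value cannot be read as an absent transcript, since the values carry no detection calls.

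Urothelium and detrusor differed in 35 carriers, 14.9% of them against 16.4% of all genes tested, of which 22 were higher in urothelium (9.36% of the carriers, against 8.37% of all genes) and 13 lower (5.53%, against 8.05% of all genes). These shares were near those of all genes. The urothelium and detrusor arrays did not overlap for 51 carriers higher in urothelium (21.7%, against 19.3% of all genes) and 33 lower (14%, against 20%), and 68 carriers had an unadjusted p under 0.05 (28.9%, against 29.5%). The largest differences were in carriers of organic cations, creatine, urea and protons, which were higher in urothelium, and in a calcium exchanger and the insulin-responsive glucose carrier, which were lower there. The median carrier differed by 0.22 on the log2 scale, against -0.01 for all genes. Between detrusor and stroma 17 carriers were called (7.23%, against 5.84% of all genes), 9 higher in detrusor (3.83%, against 3.12%) and 8 lower (3.4%, against 2.72%), and 45 had an unadjusted p under 0.05 (19.1%, against 22.9%). Arrays did not overlap for 17 carriers higher in detrusor than in stroma (7.23%, against 11.8% of all genes) and 45 lower (19.1%, against 15.3%), and the median carrier difference was -0.34, against -0.16 for all genes, which became 0.08 and 0.25 when arrays were centred on their medians. These counts rested on few arrays: without detrusor 1, 2 or 3 they were 0, 1 and 0 higher and 3, 3 and 0 lower, without stroma 1 they were 4 and 4, and without stroma 3 they were 3 and 5. The calls over all genes, 408 higher and 355 lower, fell as well. Without detrusor 1, 2 or 3 they were 167, 105 and 58 higher and 202, 85 and 47 lower. Without stroma 1 they were 326 and 312, and without stroma 3 they were 241 and 162. The 22 carriers higher in urothelium than in detrusor became 14 without detrusor 2, 11 without detrusor 3, and 12 without urothelium 1 or without urothelium 2, and the 13 lower ones became 6 to 8 without any of detrusor 1, 2 and 3 or urothelium 1 and 2. In the same fits all genes fell from 1094 higher to 656 to 776, and from 1051 lower to 516 to 750. Between urothelium and stroma no carrier was called by limma, where 0.23% of all genes were (0.0612% higher and 0.168% lower in urothelium), although 38 carriers (16.2%) had an unadjusted p under 0.05, against 19% of all genes. There the arrays did not overlap for 17 carriers higher in urothelium (7.23%, against 9.77% of all genes) and 27 lower (11.5%, against 13.3%). The replicate spread of the carriers was widest in stroma, with a median SD of 0.68 log2 units, against 0.51 in urothelium and 0.40 in detrusor.

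**Figure D1:**
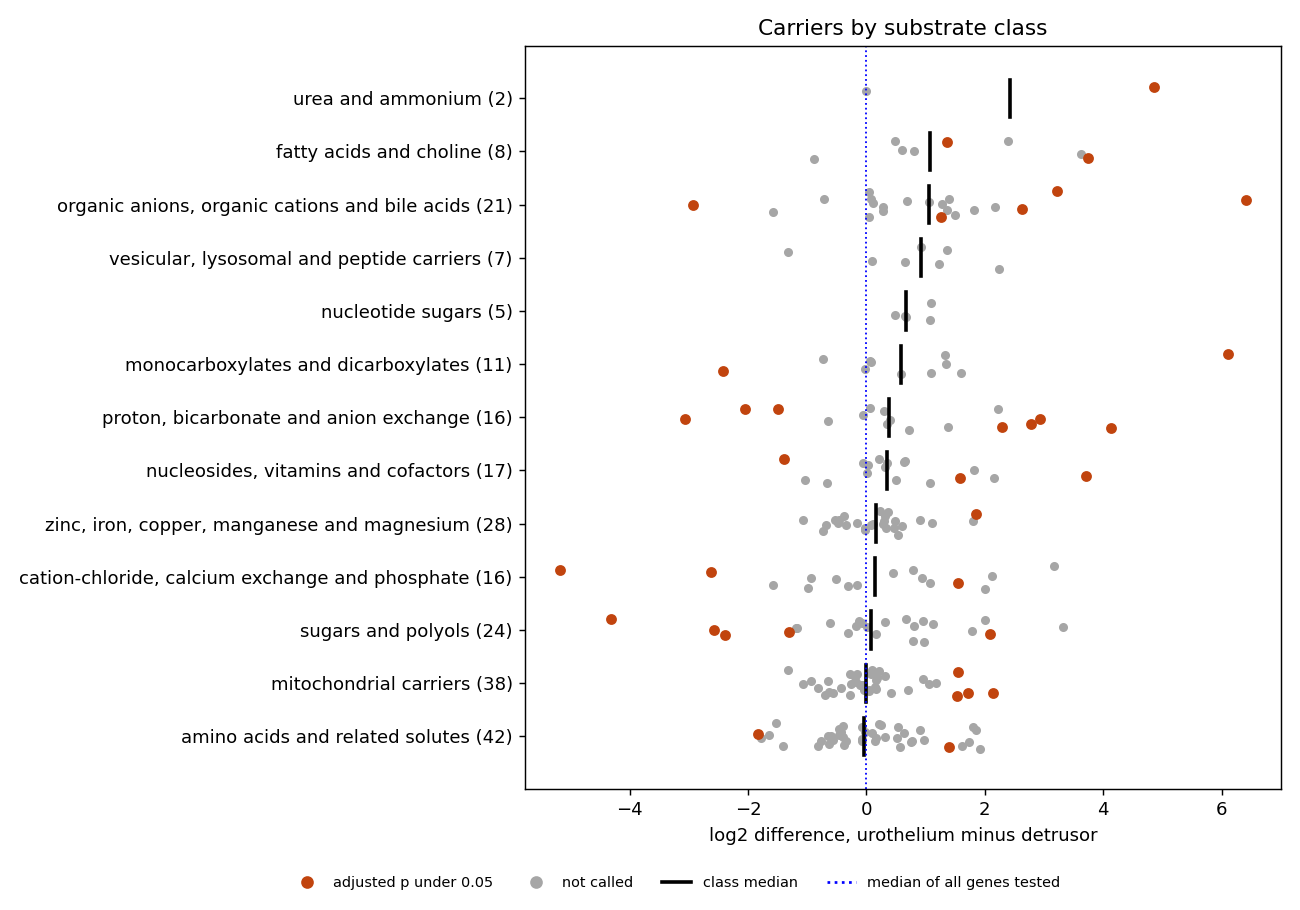
Each point is 1 carrier, placed by its log2 difference, urothelium minus detrusor (horizontal axis), in rows by substrate class with the number of carriers in brackets; orange points have an adjusted p under 0.05, black bars are class medians and the dotted line is the median of all genes tested. Among classes of 10 or more, proton, bicarbonate and anion exchange has the largest share called, 4 higher and 3 lower of 16 (43.8%, against 16.4% of all genes). It was picked as the highest, and no class was tested. Of its calls, those of Slc4a4 and Slc26a2 were lost with averaged probe sets. The amino acid and mitochondrial classes centre near 0.

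Among the 21 carriers of organic anions, organic cations and bile acids, 4 were higher and 1 was lower in urothelium than in detrusor (23.8% called, against 16.4% of all genes), with a class median of 1.06. Slc47a1, a proton-coupled exporter of organic cations and drugs, had log2 levels of 13.27, 12.59 and 11.76 in urothelium, against 7.45, 5.46 and 5.47 in detrusor. In stroma it had 10.57, 9.29 and 11.72. Urothelium was above stroma on every array, though 11.76 on urothelium 3 was close to 11.72 on stroma 3, and both layers were above detrusor without overlap. The stroma values were in the order of the urothelial marker sums of those arrays (122546, 24329 and 333929). The part of urothelial RNA in them was not tested. The difference, urothelium minus detrusor, was 6.41 ± 0.72 (SE, n = 3 arrays each; 85.3-fold; adjusted p = 0.0006093), and detrusor minus stroma was -4.40 ± 0.72 (adjusted p = 0.00941). Without urothelium 1 and stroma 3, the arrays richest in kidney tubule transcripts, the same differences were 6.05 (adjusted p = 0.002838) and -3.80 (adjusted p = 0.04857). Detrusor against stroma lost its call without detrusor 3, with an adjusted p of 0.05675.

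Slc22a23, a member of the organic ion family without a settled substrate, was at 11.54, 12.63 and 11.38 in urothelium, against 8.46, 8.63 and 8.78 in detrusor, a difference of 3.23 ± 0.68 (adjusted p = 0.008724). Its stroma values were 9.70, 8.35 and 11.48, and stroma 3, the array with the most urothelial transcripts of its layer, was within the urothelial range. The part of urothelial RNA in that value was not tested. Slc22a18, a carrier-like protein of the same family encoded by an imprinted gene, differed by 2.63 ± 0.65 (adjusted p = 0.01858), or 2.52 without urothelium 1 and stroma 3, where it was not called (adjusted p = 0.07976), and Slc22a15 by 1.27 ± 0.33 (adjusted p = 0.0246). The opposite direction was taken by Slc10a6, which imports sulfated steroids. It was at 7.08, 7.95 and 6.33 in urothelium, against 10.35, 9.50 and 10.32 in detrusor and 11.45, 10.51 and 9.47 in stroma. Urothelium lay below both other layers without overlap, with a difference from detrusor of -2.94 ± 0.59 (adjusted p = 0.007111). Its difference from stroma was -3.36 ± 0.59, with an adjusted p of 0.05374.

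**Figure D2:**
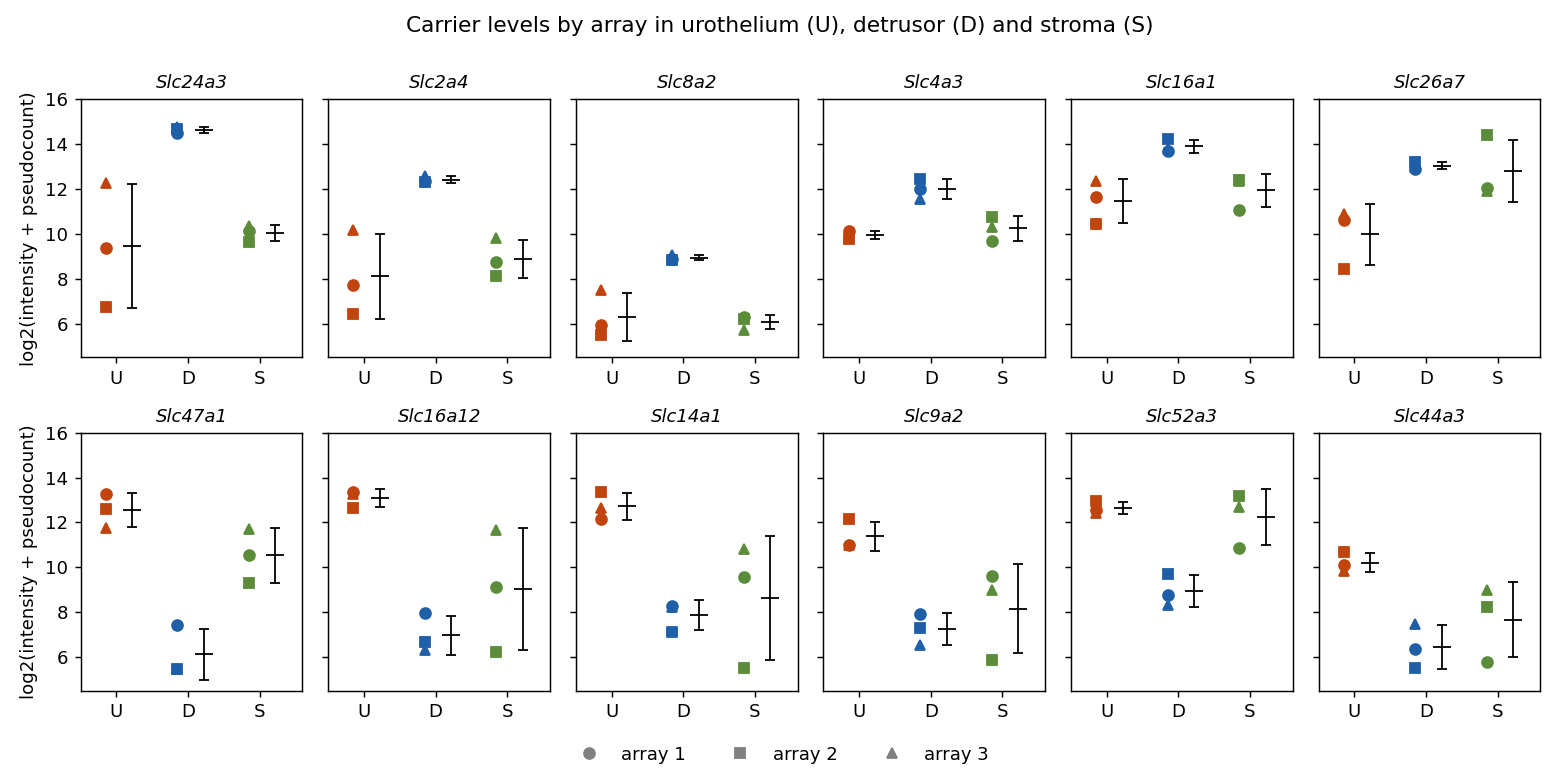
Log2(intensity + 39.31) of carriers with large layer differences on every array (points), with the mean and SD of 3 arrays (bars), in urothelium, detrusor and stroma. Slc47a1, Slc16a12, Slc14a1 and Slc9a2 are lowest in detrusor or stroma and high on all 3 urothelium arrays, while the detrusor arrays of Slc24a3 sit between 14.50 and 14.75.

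The proton, bicarbonate and anion exchangers were divided: 4 of 16 were higher in urothelium than in detrusor and 3 were lower (43.8% called, against 16.4% of all genes). Slc9a2, a sodium-proton exchanger of epithelial cell membranes, was at 11.00, 12.13 and 11.00 in urothelium, against 7.94, 7.28 and 6.54 in detrusor and 9.62, 5.89 and 8.98 in stroma. Urothelium exceeded both layers on every array, by 4.13 ± 0.85 over detrusor (adjusted p = 0.008323) and by 3.22 ± 0.85 over stroma, which was not called (adjusted p = 0.08287). Slc4a4, a sodium-bicarbonate cotransporter, stood at 12.67, 10.82 and 11.35 in urothelium, against 9.49, 8.94 and 8.07 in detrusor and 10.40, 10.17 and 12.03 in stroma. Its difference from detrusor was 2.78 ± 0.62 (adjusted p = 0.01194), and the highest values in urothelium and stroma were on urothelium 1 and stroma 3. That call rested on the probe set used: it was lost when all probe sets were averaged (1.39; adjusted p = 0.4334), and the other 3 gave 0.77, 0.88 and 1.13, none of them called. It was also lost without detrusor 3. Slc4a9, a member of the anion exchanger family, had 10.04, 8.46 and 7.72 in urothelium, against 5.78, 5.91 and 5.73 in detrusor and 8.84, 8.24 and 10.60 in stroma. It too was highest in its layer on urothelium 1 and on stroma 3. Urothelium minus detrusor was 2.93 ± 0.73 (adjusted p = 0.01993) and detrusor minus stroma was -3.42 ± 0.73 (adjusted p = 0.02463). Without those arrays, detrusor minus stroma was -2.73 with an adjusted p of 0.0606. The share of kidney tubule RNA in these differences was not tested.

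The bicarbonate and chloride exchangers Slc4a2 and Slc4a3 ran the other way. Slc4a3 was at 10.13, 9.78 and 9.90 in urothelium, against 11.98, 12.43 and 11.55 in detrusor and 9.67, 10.75 and 10.30 in stroma. Every detrusor array was above all 6 others, and the difference was -2.05 ± 0.38 for urothelium minus detrusor (adjusted p = 0.004958) and 1.75 ± 0.38 for detrusor minus stroma (adjusted p = 0.02698). Another probe set of Slc4a3 had the opposite sign for detrusor minus stroma, without being called. The detrusor minus stroma call was lost with averaged probe sets (0.84; adjusted p = 0.1577), without urothelium 1 and stroma 3 (1.78; adjusted p = 0.09619), and without any 1 detrusor array, stroma 1 or stroma 3. Slc4a2 was at 9.61, 9.51 and 9.13 in urothelium, against 10.93, 10.75 and 11.04 in detrusor, and differed by -1.49 ± 0.45 (adjusted p = 0.04484). That call was lost in 11 of 20 fits with other settings or arrays. The Slc26 family split in the same manner. Slc26a2, a sulfate carrier, was at 12.92, 13.26 and 12.83 in urothelium, against 11.30, 11.11 and 9.73 in detrusor, with a difference of 2.29 ± 0.48 (adjusted p = 0.009245) that lost its call when all probe sets of the gene were averaged (adjusted p = 0.2133). Slc26a7, an anion carrier of acid-secreting epithelia, was at 10.61, 8.43 and 10.88 in urothelium, against 12.90, 13.22 and 12.99 in detrusor. Stroma values of Slc26a7 were 12.06, 14.40 and 11.92, highest on stroma 2, the array with gonadal transcripts. Urothelium minus detrusor was -3.06 ± 0.73 (adjusted p = 0.01577). Leaving out stroma 2 cannot change that difference, only the spread shared by the layers, so it is no check of it.

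Enzymes and pumps that supply these exchangers were measured as a separate list of 31 genes, of which 5 were higher and 2 lower in urothelium than in detrusor (22.6% of the list, against 16.4% of all genes). Car2, a carbonic anhydrase that makes bicarbonate and protons, was at 12.95, 12.94 and 11.60 in urothelium, against 9.69, 9.55 and 9.04 in detrusor, a difference of 3.07 ± 0.52 (adjusted p = 0.003111). Car3, another carbonic anhydrase, differed by 1.93 ± 0.51 (adjusted p = 0.02571). The Fxyd regulators of the sodium pump diverged. Fxyd3 was at 13.23, 14.00 and 12.91 in urothelium, against 7.73, 7.69 and 8.06 in detrusor, while Fxyd1 was at 5.99, 6.87 and 9.22 in urothelium, against 12.22, 12.40 and 12.39 in detrusor. Their differences were 5.56 ± 0.83 (adjusted p = 0.001897) and -4.98 ± 0.82 (adjusted p = 0.002841). Atp6v1a, a catalytic subunit of the proton pump, was the only gene of this list called against stroma in urothelium, by 1.92 ± 0.33 (adjusted p = 0.04898), and was also higher in detrusor than in stroma, by 1.37 ± 0.33 (adjusted p = 0.03601). Its partner subunit Atp6v1b2 was higher in urothelium than in detrusor by 1.10 ± 0.33 (adjusted p = 0.04631), as was Slc9a3r1, a scaffold of the sodium-proton exchangers, by 1.24 ± 0.37 (adjusted p = 0.04516). Of the 20 fits with other settings or arrays, the Atp6v1a call was lost in 14 for urothelium against stroma and in 11 for detrusor against stroma, both of them with averaged probe sets and without urothelium 1 and stroma 3. The calls of Atp6v1b2, Slc9a3r1 and Car3 were lost in 10, 9 and 5 of these fits, and those of Car2, Fxyd1 and Fxyd3 in none.

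Urea carriers numbered only 2. Slc14a1, the urea channel of red cells and urothelium, was at 12.17, 13.36 and 12.65 in urothelium, against 8.28, 7.11 and 8.22 in detrusor and 9.58, 5.52 and 10.82 in stroma. All urothelium arrays lay above every other array, with a difference from detrusor of 4.86 ± 1.07 (29-fold; adjusted p = 0.01094). From stroma the difference was 4.09 ± 1.07 (adjusted p = 0.08011). The stroma values were in the order of the urothelial marker sums of those arrays (122546, 24329 and 333929). Urothelial RNA on the stroma arrays and expression by stromal cells cannot be told apart there. Slc14a2, the kidney urea carrier, had overlapping arrays in all layers, with 8.94, 7.42 and 8.66 in urothelium, against 9.18, 8.21 and 9.09 in stroma, and differed between urothelium and detrusor by -0.01, with a 95% interval of -1.23 to 1.21.

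Among the 11 monocarboxylate and dicarboxylate carriers, related members differed in opposite directions. Slc16a12, which carries creatine, was at 13.36, 12.64 and 13.25 in urothelium, against 7.94, 6.68 and 6.29 in detrusor and 9.14, 6.25 and 11.67 in stroma. Urothelium minus detrusor was 6.11 ± 1.06 (69.2-fold; adjusted p = 0.003555) and urothelium minus stroma 4.06 ± 1.06 (adjusted p = 0.07878). Slc16a1, the lactate and pyruvate carrier of most tissues, was at 11.65, 10.42 and 12.36 in urothelium, against 13.70, 14.22 and 13.79 in detrusor and 11.07, 12.39 and 12.34 in stroma. The detrusor arrays were above all others, by 1.97 ± 0.50 over stroma (adjusted p = 0.04576), and urothelium minus detrusor was -2.42 ± 0.50 (adjusted p = 0.008377). The call over stroma was lost in 11 of the 20 other fits, among them those without any 1 detrusor array, without urothelium 1, stroma 1 or stroma 3, and without urothelium 1 and stroma 3 together (2.17; adjusted p = 0.1079). Slc16a7, a second lactate carrier, was at 12.88, 13.19 and 12.67 in urothelium, against 9.90, 8.62 and 12.62 in stroma, where stroma 3 was near the urothelial values. That difference, 2.53 ± 0.77, was not called (adjusted p = 0.1126). Mpc1, a subunit of the mitochondrial pyruvate carrier and not a solute carrier by symbol, was higher in detrusor than in stroma by 1.77 ± 0.45 (adjusted p = 0.04541), and urothelium minus detrusor was -1.48 ± 0.45 (adjusted p = 0.04693). Both of its calls were lost in 12 of the 20 other fits.

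The 250 bases before the annotated start of Slc16a1 (chr3:104638414-104638663, plus strand) and of Slc16a12 (chr19:34747329-34747578, minus strand) are shown because these paralogs differed in opposite directions between the layers, and sequences are from RefSeq, build GRCm38.p6. Capitals mark GGGCGG on either strand, and the palindromic motif CANNTG on both at once; no marked stretches overlap.
Slc16a1: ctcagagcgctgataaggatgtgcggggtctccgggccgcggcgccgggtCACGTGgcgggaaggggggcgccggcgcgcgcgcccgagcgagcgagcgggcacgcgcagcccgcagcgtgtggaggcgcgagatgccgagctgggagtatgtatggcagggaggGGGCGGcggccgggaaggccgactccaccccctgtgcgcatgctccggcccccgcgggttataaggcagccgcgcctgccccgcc
Slc16a12: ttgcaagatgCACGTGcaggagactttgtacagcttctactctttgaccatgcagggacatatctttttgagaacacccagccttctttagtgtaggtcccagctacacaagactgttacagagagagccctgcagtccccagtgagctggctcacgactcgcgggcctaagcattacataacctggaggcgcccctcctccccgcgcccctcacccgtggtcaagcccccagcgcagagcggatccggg
Both windows hold CANNTG with the letters CACGTG. The other motif was found in the window of Slc16a1 and not in that of Slc16a12. Over all 32851 windows of this length, 66.2% hold CANNTG and 32.7% hold GGGCGG, so neither is a mark of these genes. A CArG box was in 1.47% of all windows and a MEF2 site in 2.92%. Neither was found in the 5 windows of the 4 detrusor-enriched carriers with a sequence, nor in the 21 windows of 16 carriers higher in urothelium or the 20 windows of 10 carriers lower there. Windows were held for 177 of the 235 carriers.

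Sugar carriers gave 1 member higher and 4 lower in urothelium than in detrusor, of 24 (20.8% called, against 16.4% of all genes). Slc2a4, the insulin-responsive glucose carrier of muscle and fat, was at 7.70, 6.43 and 10.17 in urothelium, against 12.35, 12.32 and 12.59 in detrusor and 8.73, 8.14 and 9.81 in stroma. The detrusor arrays lay close together and above all others, with urothelium minus detrusor at -4.32 ± 0.80 (20-fold; adjusted p = 0.004749) and detrusor minus stroma at 3.53 ± 0.80 (adjusted p = 0.02957). The highest urothelium value was on urothelium 3, which carried smooth muscle transcripts; without urothelium 3 and stroma 3 the differences were -5.35 (adjusted p = 0.0003499) and 3.99 (adjusted p = 0.004529). Without urothelium 1 and stroma 3, detrusor minus stroma was 3.99 and not called (adjusted p = 0.0723); it was also not called without any 1 detrusor array, stroma 1 or stroma 2, with adjusted p up to 0.1174. Skeletal muscle transcripts were also highest in detrusor, and the part of smooth or skeletal muscle RNA in the result was not tested. Slc2a3, a glucose carrier of high affinity, was at 9.61, 8.57 and 7.60 in urothelium, against 11.60, 10.94 and 10.38 in detrusor, a difference of -2.38 ± 0.62 (adjusted p = 0.02391). Slc2a10, a facilitative carrier of the same family, differed by -1.31 ± 0.37 (adjusted p = 0.03265), a call lost in 12 of the 20 other fits. Slc2a6, the lysosomal family member that entered through its detrusor arrays, had 7.01, 5.58 and 5.52 in urothelium, against 8.35, 8.91 and 8.59 in detrusor. In contrast Slc37a1, an exchanger of glucose 6-phosphate and phosphate, was at 8.11, 8.27 and 9.24 in urothelium, against 6.55, 6.34 and 6.45 in detrusor (2.09 ± 0.55; adjusted p = 0.02438). Slc2a1, the glucose carrier of most dividing cells, was at 11.15, 12.29 and 11.64 in urothelium, against 12.08, 11.82 and 12.11 in detrusor, with a difference of -0.31 and a 95% interval of -1.08 to 0.45.

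Calcium and chloride carriers of the plasma membrane included the member that was most raised in detrusor. Slc24a3, a potassium-dependent sodium-calcium exchanger, was at 9.38, 6.74 and 12.27 in urothelium, against 14.50, 14.68 and 14.75 in detrusor and 10.10, 9.64 and 10.33 in stroma. Urothelium minus detrusor was -5.18 ± 1.01 (36.3-fold; adjusted p = 0.006198), and detrusor minus stroma was 4.62 ± 1.01 (24.6-fold; adjusted p = 0.02707). The urothelium values were in the order of the smooth muscle marker sums of the same arrays, 58712, 38983 and 428675. The skeletal muscle marker sums had the same order, 668, 230 and 32681, and the part of either was not tested. Without urothelium 3 and stroma 3, urothelium minus detrusor was -6.58 (adjusted p = 0.0004695). Detrusor minus stroma was 4.77 without urothelium 1 and stroma 3 and was not called (adjusted p = 0.09548), and it was not called without any 1 detrusor or stroma array, with adjusted p up to 0.1062. Slc8a2, a sodium-calcium exchanger that entered through its detrusor arrays, was at 5.92, 5.49 and 7.50 in urothelium, against 8.87, 8.85 and 9.05 in detrusor and 6.30, 6.20 and 5.70 in stroma. Its relative Slc8a1, the main cardiac and smooth muscle member, was at 12.65, 10.48 and 11.83 in urothelium, against 11.94, 13.20 and 11.35 in detrusor and 12.14, 12.35 and 12.55 in stroma, with overlap throughout and differences between -0.70 and -0.18. Slc12a7, a potassium-chloride cotransporter, was higher in urothelium than in detrusor by 1.55 ± 0.46 (adjusted p = 0.0446), a call lost in 13 of the 20 other fits. Slc12a2, the sodium-potassium-chloride cotransporter of secretory epithelia, was at 14.15, 14.57 and 14.24 in urothelium, against 13.52, 13.64 and 12.99 in detrusor, without overlap but not called (0.94 ± 0.29; adjusted p = 0.05187). Slc2a1, Slc8a1 and Slc12a2, like Slc25a4, Slc25a5, Slc7a5, Slc3a2 and Slc38a5 below, were named outside the naming rule, after their values were seen.

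The 38 mitochondrial carriers centred at 0.00 between urothelium and detrusor, with 4 higher and none lower (10.5% called, against 16.4% of all genes), and gave 2 higher and 2 lower in detrusor than in stroma (10.5%, against 5.84%). The paralogs that exchange aspartate for glutamate, and so feed the malate-aspartate shuttle, differed in opposite directions. Slc25a12, called aralar, was at 11.30, 12.25 and 11.47 in urothelium, against 12.75, 12.58 and 12.90 in detrusor and 11.36, 10.50 and 10.79 in stroma. Slc25a13, called citrin, was at 10.10, 9.70 and 8.58 in urothelium, against 8.14, 6.88 and 6.93 in detrusor and 10.38, 10.25 and 10.06 in stroma. Detrusor was the highest layer for Slc25a12 and the lowest for Slc25a13, with no overlap of detrusor with the other layers in either. For detrusor minus stroma Slc25a12 gave 1.86 ± 0.35 (adjusted p = 0.01685) and Slc25a13 gave -2.92 ± 0.52 (adjusted p = 0.01355). Urothelium minus detrusor was 2.14 ± 0.52 for Slc25a13 (adjusted p = 0.01708) and -1.07 ± 0.35 for Slc25a12, which was not called (adjusted p = 0.06341). Without urothelium 1 and stroma 3 detrusor minus stroma was 1.81 for Slc25a12 (adjusted p = 0.07149) and -3.00 for Slc25a13 (adjusted p = 0.05135). The Slc25a12 call was lost with averaged probe sets (1.04; adjusted p = 0.1282). Its other 2 probe sets gave 0.03 (adjusted p = 0.9793) and 1.24 (adjusted p = 0.349) for detrusor minus stroma, and the first of these gave 0.83 for urothelium minus detrusor, the opposite sign, so the opposition to Slc25a13 rests on the probe set used. The windows before their starts, Slc25a12 at chr2:71367756-71368005 (minus strand) and Slc25a13 at chr6:6217174-6217423 (minus strand), are shown for the same reason and with the same marks.
Slc25a12: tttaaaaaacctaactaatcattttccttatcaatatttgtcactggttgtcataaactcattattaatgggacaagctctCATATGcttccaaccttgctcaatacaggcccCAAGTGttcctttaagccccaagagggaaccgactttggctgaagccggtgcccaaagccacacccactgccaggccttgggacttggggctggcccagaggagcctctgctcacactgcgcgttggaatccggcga
Slc25a13: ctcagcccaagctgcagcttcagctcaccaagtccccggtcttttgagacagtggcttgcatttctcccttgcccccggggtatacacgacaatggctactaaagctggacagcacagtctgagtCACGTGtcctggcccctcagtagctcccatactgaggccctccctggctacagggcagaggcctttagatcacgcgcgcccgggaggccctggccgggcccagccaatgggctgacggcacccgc
Slc25a12 holds CANNTG at 2 places and Slc25a13 at 1 place, and neither window holds GGGCGG.

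Among the other mitochondrial carriers, Slc25a46, an outer membrane protein of mitochondrial division, was higher in detrusor than in stroma by 1.06 ± 0.26 (adjusted p = 0.03958), and Slc25a45 was lower by 1.67 on the log2 scale (adjusted p = 0.03845). These calls were lost in 15 and 12 of the 20 other fits. The other probe set of Slc25a46 gave 0.43 (adjusted p = 0.5253 in the limma fit over all probe sets). Higher in urothelium than in detrusor were Slc25a1, which exports citrate (1.71 ± 0.34; adjusted p = 0.006313), Slc25a10, the dicarboxylate carrier (1.53 ± 0.37; adjusted p = 0.01708), and Slc25a24, a carrier of ATP-magnesium and phosphate (1.54 ± 0.45; adjusted p = 0.0407). The Slc25a24 call was lost in 11 of the 20 other fits. Slc25a1 was at 13.07, 13.79 and 12.60 in urothelium, against 11.53, 11.53 and 11.26 in detrusor. Of the adenine nucleotide translocases, Slc25a5 differed by -0.06 between urothelium and detrusor, with a 95% interval of -0.52 to 0.41. The probe sets of Slc25a4 disagreed. The one used here, with the highest mean, gave -0.57 for urothelium minus detrusor, with a 95% interval of -1.20 to 0.07. The other 3 were called in the limma fit over all probe sets, at -1.93 (adjusted p = 0.001022), -3.32 (adjusted p = 0.00143) and -1.51 (adjusted p = 0.002958), and were called for detrusor minus stroma too, at 1.22 to 3.66 (adjusted p = 0.002934 to 0.02184). With its probe sets averaged, Slc25a4 met the rule for enrichment in detrusor given below. Slc25a25, related to Slc25a24, was at 7.57, 8.25 and 6.96 in urothelium, against 9.25, 9.16 and 10.04 in stroma, a difference of -1.89 ± 0.56 that was not called (adjusted p = 0.1041).

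**Figure D3:**
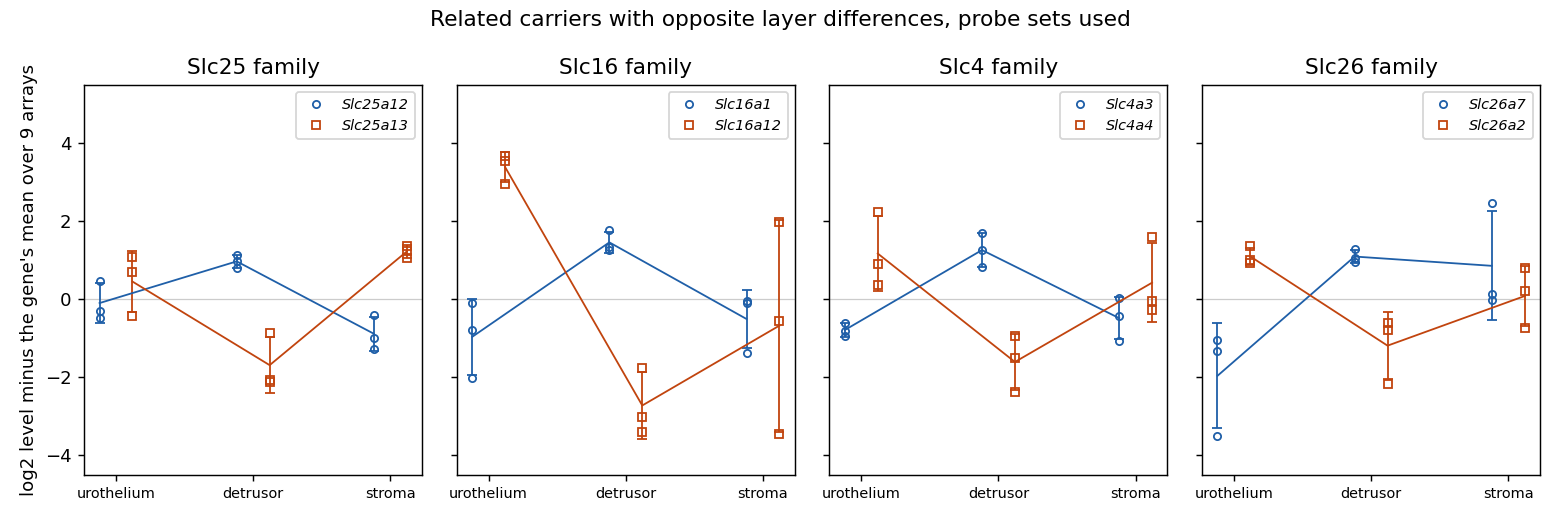
Pairs of related carriers, each shown as its log2 level minus its own mean over the 9 arrays, on every array (open symbols) with the mean and SD of 3 arrays, by layer; the vertical axis is in log2 units and lines join layer means. Slc25a12, Slc16a1 and Slc4a3 peak in detrusor where Slc25a13, Slc16a12 and Slc4a4 are lowest, and Slc26a7 is low in urothelium where Slc26a2 is high. Each gene is shown by the probe set used, and the calls of Slc4a4 and Slc26a2 between urothelium and detrusor and of Slc25a12 and Slc4a3 between detrusor and stroma were lost with averaged probe sets.

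Of 17 carriers of nucleosides, vitamins and cofactors, 2 were higher and 1 lower in urothelium than in detrusor (17.6% called, against 16.4% of all genes), and 1 was higher and 3 lower in detrusor than in stroma (23.5%, against 5.84%). Slc52a3, the riboflavin importer of epithelia, was at 12.57, 12.96 and 12.43 in urothelium, against 8.79, 9.71 and 8.31 in detrusor and 10.84, 13.20 and 12.70 in stroma. Detrusor lay below both other layers, with urothelium minus detrusor at 3.72 ± 0.58 (13.1-fold; adjusted p = 0.002278) and detrusor minus stroma at -3.31 ± 0.58 (adjusted p = 0.01271), or -3.08 (adjusted p = 0.07325) without urothelium 1 and stroma 3. Slc19a3, a thiamine importer, was higher in urothelium than in detrusor by 1.58 ± 0.49 (adjusted p = 0.04907), and Slc29a1, the plasma membrane nucleoside carrier, was lower by 1.39 on the log2 scale (adjusted p = 0.02142). These calls were lost in 13 and 7 of the 20 other fits. Slc29a3, the lysosomal relative of Slc29a1, was at 10.51, 10.31 and 10.11 in detrusor, against 11.79, 11.81 and 11.81 in stroma (-1.50 ± 0.39; adjusted p = 0.04892). Its call was lost in 15 of the 20 other fits. Slc43a3, a purine nucleobase carrier, was at 10.19, 10.26 and 10.04 in detrusor, against 12.07, 11.36 and 12.21 in stroma (-1.72 ± 0.41; adjusted p = 0.03472). Slc48a1, which moves heme out of lysosomes, went the other way, at 12.42, 11.71 and 12.96 in detrusor, against 10.97, 10.17 and 10.72 in stroma (1.75 ± 0.39; adjusted p = 0.02957). Slc46a3 and Slc23a1, an ascorbate carrier, had large but uncalled ranges between layers, of 1.81 and 2.16 on the log2 scale.

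Of the choline carriers, Slc44a3 and Slc44a2 were higher in urothelium than in detrusor. Slc44a3 was at 10.11, 10.66 and 9.83 in urothelium, against 6.37, 5.51 and 7.48 in detrusor and 5.79, 8.22 and 8.99 in stroma, without overlap of urothelium with either layer. It differed from detrusor by 3.74 ± 0.81 (13.4-fold; adjusted p = 0.009971) and from stroma by 2.53 ± 0.81 (adjusted p = 0.1239). Slc44a2 differed by 1.35 ± 0.41 (adjusted p = 0.04638), with another of its probe sets of opposite sign, and Slc44a4 by 2.39 ± 0.85, which was not called (adjusted p = 0.08261). The Slc44a2 call was lost in 13 of the 20 other fits. The 8 carriers of fatty acids and choline had a median of 1.08 between urothelium and detrusor, with 2 called (25%, against 16.4% of all genes).

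The amino acid carriers, the largest class with 42 members, centred at -0.04 between urothelium and detrusor. Slc7a6, an exchanger of basic for neutral amino acids, was higher in urothelium than in detrusor by 1.40 ± 0.41 (adjusted p = 0.0394). Slc6a17, a vesicular carrier of neutral amino acids known from neurons, was at 8.27, 8.13 and 9.16 in urothelium, against 10.29, 10.40 and 10.38 in detrusor (-1.84 ± 0.46; adjusted p = 0.02077). Slc38a1, a sodium-coupled glutamine carrier, was at 13.38, 13.48 and 13.36 in detrusor, against 11.30, 12.62 and 11.32 in stroma (1.66 ± 0.36; adjusted p = 0.02648), and another of its probe sets had the opposite sign. Slc7a10, an exchanger of small neutral amino acids, was at 7.64, 6.99 and 7.60 in urothelium, against 10.53, 8.34 and 9.40 in stroma, where the difference of -2.01 ± 0.56 was not called (adjusted p = 0.0926). Slc66a1, an exporter of basic amino acids from lysosomes, was lowest in detrusor, at 6.75, 6.33 and 6.46, against 9.25, 7.59 and 9.49 in stroma (adjusted p = 0.06226). The large neutral amino acid carrier Slc7a5 was at 10.95, 12.20 and 11.47 in urothelium, against 12.95, 14.28 and 10.64 in stroma, with overlap, and its partner chain Slc3a2 differed by -0.14 between the same layers. Slc38a5, a glutamine carrier, was at 13.19 on stroma 2 and at 8.67 to 10.05 on the other 8 arrays, stroma 2 being the array with gonadal transcripts.

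Of 28 metal carriers, 1 was called in urothelium against detrusor (3.57%, against 16.4% of all genes) and 1 in detrusor against stroma (3.57%, against 5.84%). The zinc importer Slc39a10 was at 14.11, 14.58 and 14.40 in urothelium, against 13.04, 12.16 and 12.32 in detrusor (1.86 ± 0.37; adjusted p = 0.006752). Slc39a8, an importer of zinc and manganese, was at 10.31, 10.37 and 9.72 in detrusor, against 12.72, 11.38 and 12.23 in stroma (-1.97 ± 0.47; adjusted p = 0.03446), a call lost when all probe sets were averaged (adjusted p = 0.4316). Slc39a2, another zinc importer, entered on 3 arrays and was not called. No nucleotide sugar carrier was called among 5. In urothelium the Golgi carrier Slc35a3 was above detrusor without overlap, by 1.08 ± 0.34 (adjusted p = 0.05602). Slc35a5 was above detrusor by 0.65, with overlap. Slc35a2 was above detrusor by 1.08 with overlap (adjusted p = 0.1451), but 3 of its other 4 probe sets had the opposite sign (-0.90, -0.85 and -1.28, the last with an adjusted p of 0.02292 in the limma fit over all probe sets), so its direction is uncertain. Nor was any of 7 vesicular, lysosomal and peptide carriers, where Slc17a9, the vesicular ATP carrier, was at 8.19, 6.39 and 5.87 in urothelium, against 8.08, 8.04 and 8.30 in detrusor.

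Enrichment in 1 layer, taken as a call against both other layers with at least 1 log2 unit in each, was met in detrusor by 5 carriers, Slc24a3, Slc2a4, Slc8a2, Slc16a1 and Slc4a3, and by 2.33% of all genes. Slc8a2 entered through its detrusor arrays alone, so its enrichment follows partly from the rule and nothing is read from the count. No carrier was enriched in detrusor when any 1 detrusor array was left out, nor without urothelium 1 and stroma 3. Skeletal muscle transcripts were highest in detrusor too, and their part in these 5 was not tested. In the main fit no carrier was enriched in urothelium or stroma by this rule, where 0.0536% and 0.00765% of all genes were. Slc14a1, Slc16a12 and Slc9a2 met it in urothelium when arrays were centred on their medians, and Slc14a1, Slc16a12 and Slc22a23 when urothelium 3 and stroma 3 were left out. Of the 52 calls of carriers over the layer comparisons, 14 held in all 20 fits with other settings or arrays, all of them between urothelium and detrusor (Slc47a1, Slc16a12, Slc14a1, Slc9a2, Slc44a3, Slc52a3, Slc22a23, Slc39a10 and Slc25a1, higher in urothelium; Slc24a3, Slc2a4, Slc10a6, Slc16a1 and Slc4a3, lower). The same count was not made over all genes, so the 14 do not show whether carriers held better or worse than other genes. Leaving out an array of a layer changes no difference between the other layers. Such fits test a call between those layers only through the shared spread. Of the 52, 29 were lost without urothelium 1 and stroma 3, and 21 were lost without urothelium 3 and stroma 3. Without urothelium 1 and stroma 3, 16 of the 17 calls between detrusor and stroma were lost, all but that of Slc47a1, with adjusted p of 0.05135 to 0.1473. The calls over all genes fell there too, from 408 higher and 355 lower to 124 and 64. In the same fit 13 of the 35 calls between urothelium and detrusor were lost, those of Slc12a7, Slc19a3, Slc22a15, Slc22a18, Slc25a10, Slc25a13, Slc25a24, Slc29a1, Slc2a10, Slc44a2, Slc4a2, Slc6a17 and Slc8a2. Over all genes the calls between urothelium and detrusor fell from 1094 higher and 1051 lower to 749 and 719. Without stroma 2, the array with gonadal transcripts, 6 calls between detrusor and stroma were lost, those of Slc24a3, Slc25a45, Slc25a46, Slc29a3, Slc2a4 and Slc48a1. Over all genes the calls there were 374 higher and 477 lower, against 408 and 355. None was lost between urothelium and detrusor, whose differences do not depend on the stroma arrays. With averaged probe sets 10 calls were lost, those of Slc12a7, Slc26a2, Slc44a2, Slc4a4 and Slc7a6 between urothelium and detrusor and of Slc25a12, Slc25a46, Slc38a1, Slc39a8 and Slc4a3 between detrusor and stroma. Over all genes, averaged probe sets gave 1015 higher and 1075 lower between urothelium and detrusor, against 1094 and 1051. Between detrusor and stroma they gave 388 and 319, against 408 and 355. These totals join gained and lost calls. No call of a carrier changed sign in any fit.

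A further group of carriers varied between arrays of the same layer. These 16 carriers were at least 2 log2 units higher on urothelium 1 than on urothelium 2 and on every detrusor array, and at least 2 higher on stroma 3 than on stroma 1, a pattern shared by 92 of all 13064 genes (6.81% of carriers and 0.704% of all genes). The rule for this group was set after the values were seen, so no test is given. Most are known from the kidney tubule. Slc12a1, the sodium-potassium-chloride cotransporter of the loop of Henle, was at 14.61, 6.75 and 10.18 in urothelium, against 7.37, 7.84 and 6.82 in detrusor and 8.35, 10.11 and 13.80 in stroma. Slc2a2, a glucose carrier of liver and proximal tubule, was at 13.72, 5.44 and 9.41 in urothelium, against 5.65, 7.30 and 5.66 in detrusor and 5.77, 9.55 and 12.32 in stroma. Both were high on urothelium 1 and stroma 3, intermediate on urothelium 3 and stroma 2, and low elsewhere.

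Other members of that group were Slc27a2, a fatty acid carrier and acyl-CoA synthetase, Slc7a9 and Slc3a1, the chains of the cystine carrier, and Slc34a1 and Slc34a3, the phosphate cotransporters. The rest were Slc5a2, Slc5a10, Slc9a3, Slc13a3, Slc17a1, Slc17a3, Slc22a2, Slc6a18 and Slco1a6, which include the glucose cotransporter and sodium-proton exchanger of the proximal tubule. Their median level was 12.33, 6.86 and 7.90 in urothelium, against 7.10, 7.23 and 7.05 in detrusor and 7.81, 8.88 and 11.28 in stroma. Umod, the defining transcript of the thick ascending limb and not a carrier, was at 13.47, 6.16 and 10.18 in urothelium, against 6.79, 6.83 and 5.65 in detrusor and 8.37, 12.20 and 15.53 in stroma, in the same order of arrays within urothelium. None of the 16 was called in a layer comparison, and 6 of the 16 carriers that entered on exactly 3 arrays belonged to them. Their place among carriers of the bladder itself cannot be told apart from RNA of tubule cells in these arrays.

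**Figure D4:**
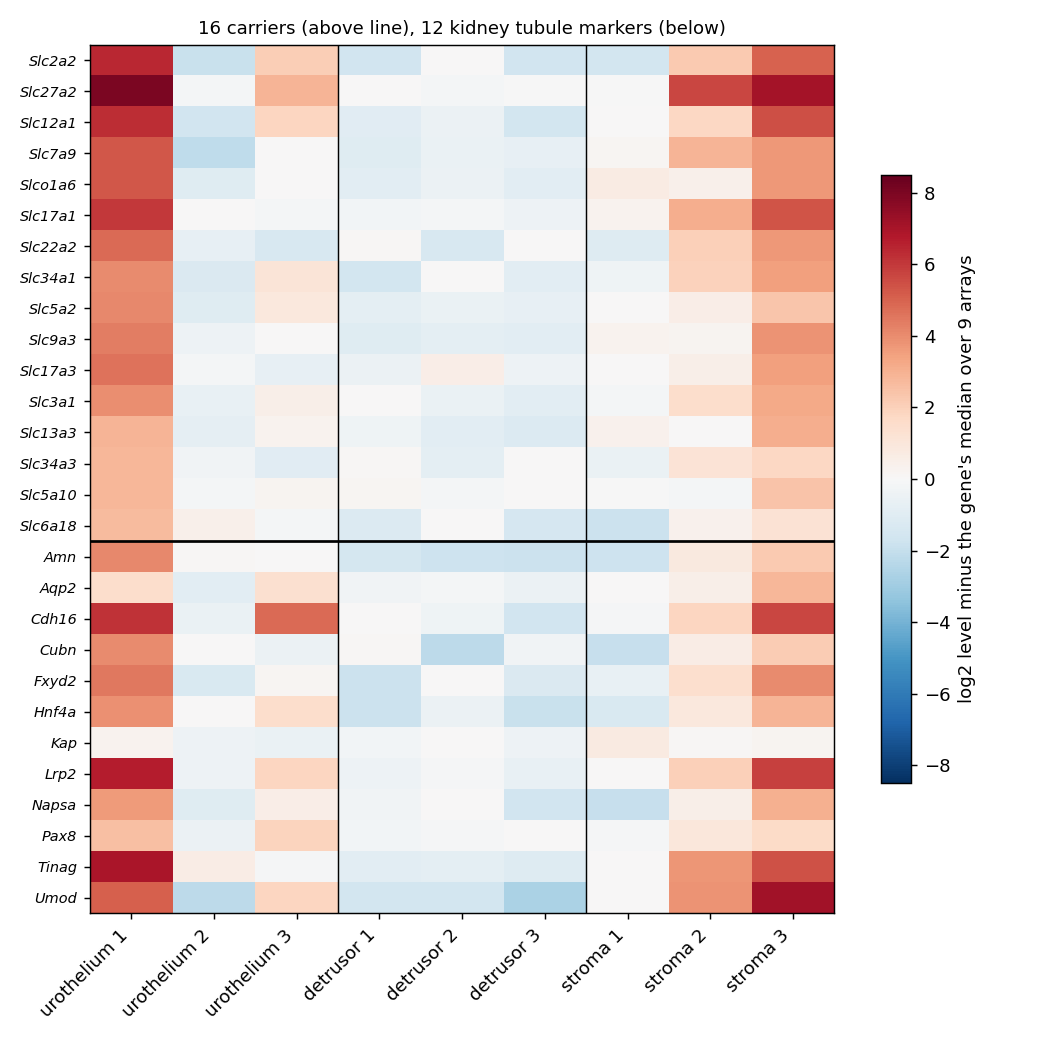
Log2 level minus the median of each gene over 9 arrays (colour, log2 units; red high, blue low) for the 16 carriers above the line and 12 kidney tubule markers below it, with 1 column per array in the order urothelium, detrusor, stroma. Urothelium 1 and stroma 3 are red for nearly every gene in both blocks, Kap being an exception, and the detrusor arrays are near or below the gene's median.

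Between postnatal days, with layer in the fit, no carrier was called for day 2 against day 1 by limma, where 0.0153% of all genes were, and 11 carriers (4.68%) had an unadjusted p under 0.05, against 5.56% of all genes. The 4 largest positive differences belonged to tubule carriers, Slc27a2 (4.03 ± 1.28), Slc2a2 (3.49 ± 1.33), Slc12a1 and Slc7a9, and urothelium 1 and stroma 3 were both day 2 arrays. Largest in the negative direction were Slc9a2 (-1.46 ± 0.62), Slco4a1 (-1.45 ± 0.60), Slco2a1, a prostaglandin carrier (-1.33 ± 0.59), and Slc38a9, an amino acid sensor of lysosomes (-1.26 ± 0.36), each with an adjusted p of 0.8728. At the other end, 6 carriers had layer means within 0.11 log2 units of one another by the probe set used: Slc25a17, the peroxisomal cofactor carrier, Slc22a17, Slc6a6, the taurine carrier, Slc11a2, an iron importer, Slc30a9 and Slc36a3. The other probe sets of Slc11a2 gave -1.61 and -0.27 for detrusor minus stroma. Neither was called (adjusted p = 0.1614 and 0.8723 in the limma fit over all probe sets). Slc25a17 was at 11.58, 12.06 and 11.47 in urothelium, 11.77, 11.17 and 12.05 in detrusor and 11.62, 11.43 and 11.92 in stroma, and urothelium minus detrusor was 0.04, with a 95% interval of -0.70 to 0.78.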

How the data were processed

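The deposited table holds 1 intensity per probe set and array for 45101 probe sets; per the submitters' processing notes GCOS was used, whose version is not given in the sources used here. On every array the trimmed mean (2% off each end) is 1500.01, so the authors' intensity values were scaled to a common target, and array medians lay between 133.28 and 388.47. Probe sets were named by the platform annotation; 64 controls were left out, 34945 carried 1 symbol, 932 several and 9160 none, and none with several was used. The filter kept 22207 probe sets and 13064 genes. Values were taken as log2 of the deposited intensity plus 39.31, the 20th percentile of all values, and fitted with limma 3.58.1 (R 4.3.3; lmFit, eBayes with a trend) over all 9 arrays, with Benjamini-Hochberg adjustment over all genes. The number of arrays limits the precision, and the median SE of a layer difference over carriers was 0.49.

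The rule's symbol pattern was read as Slc, number, a, number, or Slco, number, letter, number; 28 kept symbols beginning Slc fell outside it. Named were all called carriers up to 12 per direction and comparison, the 3 with the largest layer range per class, the 6 with the smallest range, the 4 largest day differences per direction, pairs called oppositely within a family, and called pump and partner genes; further called carriers and a few outside the rule were added. Members, classes and lists were chosen with earlier results of these data known; the kidney and gonad lists and the fit without urothelium 1 and stroma 3 were added after seeing the data. The fit was tested on simulated data. Promoter sequences are from RefSeq (GRCm38.p6). Replicate numbers follow the order of deposition and pair nothing.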

Additional observations from a re-analysis of the deposited data

How the results depend on the processing

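No paired analysis was possible because the labels carry no replicate numbers, and those used here only name arrays. The carriers higher in urothelium than in detrusor numbered 51 and those lower 24 with array weights, against 22 and 13; without urothelium 1 and stroma 3 they were 14 and 8, and without stroma 3 and urothelium 3 the lower count was 8. The counts over all genes were 1954 and 1831, 749 and 719, and 986 lower in these fits, against 1094 and 1051. For detrusor against stroma, the counts without stroma 3 and urothelium 3 were 5 higher and 4 lower, without urothelium 1 and stroma 3 they were 1 and 2, and with median centring 4 were lower. Over all genes these fits gave 302 and 126, 124 and 64, and 144 lower, against 408 and 355. Detrusor-enriched carriers numbered 3 with the pseudocount at the 5th percentile and without stroma 3 and urothelium 3, and 0 without urothelium 1 and stroma 3. For urothelium against stroma, higher carriers numbered 3 with median centring or the median pseudocount, 4 without stroma 3 and urothelium 3, and 2 without urothelium 1 and stroma 3; lower carriers numbered 1 with averaged probe sets, with the median pseudocount and without urothelium 1 and stroma 3, and 2 without stroma 3 and urothelium 3. Over all genes, urothelium against stroma gave 163 higher and 140 lower with the median pseudocount, against 8 and 22. It gave 217 and 223 without stroma 3 and urothelium 3, 99 and 46 without urothelium 1 and stroma 3, and 35 and 81 with averaged probe sets. Urothelium-enriched carriers numbered 3 with median centring, with the median pseudocount and without stroma 3 and urothelium 3, and 1 without urothelium 1 and stroma 3. Leaving out each array in turn gave 11 to 30 higher and 6 to 16 lower for urothelium against detrusor, 0 to 9 and 0 to 10 for detrusor against stroma, 0 to 4 and 0 to 1 for urothelium against stroma, and 0 to 5 enriched in detrusor and 0 to 4 in urothelium. Over all genes the calls in the same order were 656 to 1253 and 516 to 1182, 58 to 458 and 47 to 477, and 0 to 327 and 0 to 201. Enrichment over all genes was counted in the main fit only, so nothing is read from the enriched counts of other fits. Detrusor against stroma gave 0 higher without detrusor 1 or 3 and 0 lower without detrusor 3, where all genes fell to 167 and 58 higher and to 47 lower. Median centring moved the median of all genes to 0.25 for detrusor against stroma, against -0.16, and to 0.31 for urothelium against stroma, against -0.12; all genes then split into 589 higher and 144 lower for detrusor against stroma, against 408 and 355, and 192 and 31 for urothelium against stroma, against 8 and 22. The causes were not tested. With 3 arrays a layer and amplified RNA, small differences were not detectable here, and dim carriers have compressed differences.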
